A study of Mus musculus with 24 samples.

Results

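The genes described here are 32 genes of the ATF4 amino acid response and of the unfolded protein response, out of 45706 genes listed in the count table. The list was drawn up with earlier results of these data known, its rule sets no threshold on a measured value, and all 32 genes were found in the table by symbol. RNA sequencing covered 24 libraries from female C57BL/6J mice aged 8 to 12 weeks per the labels, in 8 groups of 3 libraries. Sorted, or ex vivo, microglia (MG, gated CD45low CD11b+), Kupffer cells (KCs, gated for F4/80 and TIM-4), peritoneal macrophages (PMs, gated for CD115 and F4/80) and alveolar macrophages (AMs, gated SiglecF+ CD11blow) came from brain, liver, peritoneal cavity and lung. Cultured, or in vitro, tissue-resident macrophage-like cells of the same organs (MG-LCs, KC-LCs, PM-LCs and AM-LCs) grew for 2 weeks in PEI-coated flasks, with other cells of the tissue suspension plated alongside. MG-LCs, KC-LCs and PM-LCs received M-CSF and high glucose in reduced oxygen, with IL-34 in addition for MG-LCs, whereas AM-LCs received GM-CSF in atmospheric oxygen, in a medium described without glucose. For a flask, brains, lungs or peritoneal cells of 3 mice were pooled, and 1 liver was used for KC-LCs. Liver and lung were digested with enzymes, brain was homogenised in the cold and the peritoneum was lavaged. No group carried a further treatment. In every comparison with AM-LCs, the tissue, GM-CSF, oxygen and the stated glucose cannot be told apart. The labels give replicate numbers but not whether the 3 libraries of a group came from separate flasks or mice, so the p-values measure the spread between these libraries, which may be technical.

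ATF4 is a transcription factor whose mRNA is translated best when eIF2alpha is phosphorylated, as happens when amino acids run short or when unfolded proteins fill the endoplasmic reticulum (ER). It drives genes for amino acid synthesis, amino acid import and feedback on the response itself. The unfolded protein response has further arms, ATF6 and the nuclease IRE1 (gene Ern1), which splices Xbp1 mRNA, and these arms drive ER chaperones and factors of ER-associated degradation. In macrophages both programmes are known to follow nutrient supply and the load of newly made protein. Reads per gene measure neither the translation of Atf4 nor the splicing of Xbp1.

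The promoter windows of the members show which of the known response elements they hold. RefSeq windows from 250 bases before to 50 after the annotated start (assembly GRCm38.p6) were found for 28 of the 32 members. The C/EBP-ATF response element (CARE, TGATGNAA, searched on both strands) occurred in 3.97% of 32851 windows and in those of 7 members, which were Nupr1, Trib3, Chac1, Vldlr, Asns, Slc7a11 and Herpud1. The ER stress response element (ERSE, CCAAT and CCACG with 9 free bases between them, both strands) occurred in 0.119% of windows and in those of Hspa5, Hsp90b1, Calr and Creld2. Its shorter form (ERSE-II, ATTGG and CCACG with 1 free base between them, both strands) occurred in 0.0365% of windows and among the members in Herpud1, the 1 member window that held elements of both kinds. CARE and ERSE matches did not share bases in these windows. A match is a description of the letters and was not measured as a bound site. The stretches below are written 5′ to 3′ on the strand of the gene, with the matched element in capitals. They are shown as examples of members with a CARE (Asns, Chac1, Slc7a11 and Nupr1), an ERSE (Hspa5, Calr and Creld2) or both kinds of element (Herpud1), whichever way the genes changed, and lie at chr6:7693210-7693267 (minus strand, Asns), chr2:119351014-119351091 (plus, Chac1), chr3:50443618-50443714 (minus, Slc7a11, with 2 matches), chr7:126625538-126625615 (minus, Nupr1), chr2:34771990-34772078 (plus, Hspa5), chr8:84847040-84847128 (minus, Calr), chr15:88819485-88819573 (plus, Creld2) and chr8:94386282-94386422 (plus, Herpud1, with its CARE first and its ERSE-II second).
Asns: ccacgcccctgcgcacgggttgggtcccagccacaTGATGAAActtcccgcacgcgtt
Chac1: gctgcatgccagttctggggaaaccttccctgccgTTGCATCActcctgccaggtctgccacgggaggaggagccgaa
Slc7a11: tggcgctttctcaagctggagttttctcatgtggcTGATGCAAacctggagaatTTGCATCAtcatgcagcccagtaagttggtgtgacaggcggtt
Nupr1: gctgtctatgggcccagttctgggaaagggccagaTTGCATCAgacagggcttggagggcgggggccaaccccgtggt
Hspa5: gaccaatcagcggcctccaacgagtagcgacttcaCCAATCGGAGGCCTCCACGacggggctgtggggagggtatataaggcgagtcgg
Calr: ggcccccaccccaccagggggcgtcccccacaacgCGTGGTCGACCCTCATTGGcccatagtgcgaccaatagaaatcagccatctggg
Creld2: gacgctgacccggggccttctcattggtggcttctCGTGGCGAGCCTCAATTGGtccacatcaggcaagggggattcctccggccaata
Herpud1: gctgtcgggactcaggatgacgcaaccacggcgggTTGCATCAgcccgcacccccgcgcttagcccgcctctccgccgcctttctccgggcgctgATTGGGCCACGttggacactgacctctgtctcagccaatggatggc

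Library totals ran from 29569486 to 47105111 gene reads, which puts the floor of 3 reads at 0.0661 to 0.115 CPM (read counts scaled to library size, normalised by TMM over all 24 libraries). The floor covers counting error only. All 8 macrophage marker genes checked were detected in every group. Markers of the organ were high in the sorted cells and lower in culture, with a summed level of 13900 to 24800 CPM for 4 Kupffer cell genes in KCs against 16.9 to 94 CPM in KC-LCs. In vitro libraries also held fibroblast and mesothelium genes, whose sum over 8 genes was 30900 CPM in MG-LC 1, 2210 CPM in PM-LC 2 and 1670 CPM in AM-LC 3, and at most 29.8 CPM in the KC-LC libraries. The sum was 1010 CPM in MG-LC 3, 365 CPM in PM-LC 3 and 181 CPM in AM-LC 2. It was 7.39 CPM in MG-LC 2, 22.9 CPM in PM-LC 1 and 17 CPM in AM-LC 1. Sorted KCs held 460 to 838 CPM of 8 endothelial genes and 127 to 255 CPM of 8 hepatocyte genes. In bulk libraries, fewer cells that express a gene and less of its RNA per cell cannot be told apart.

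Asns and Psat1, enzymes of amino acid synthesis that ATF4 drives, were higher in vitro in all 4 populations, and most genes of the ATF4 branch were higher in PM-LCs and AM-LCs. ER chaperones were higher in AM-LCs and for the most part did not pass the test elsewhere. Fold changes are in vitro minus ex vivo on the log2 scale, so that a positive value stands for higher expression in culture, and a gene is called at an adjusted p below 0.05 over all genes tested. In MG, 7 of 32 members were called higher and 2 lower in vitro, where 46.4% of all genes tested were called. For KCs the counts were 5 higher and 3 lower of 30 tested, where 33.8% of all genes were called, so that in MG and KCs the members were called no more often than genes at large. In PMs, 13 of 30 were called higher and 3 lower, where 28.9% of all genes were called. Of the 32 members in AMs, 23 were called higher and 1 lower, where 48.7% of all genes were called. Aldh1l2 and Vldlr were too low to be tested in KCs and PMs, and all other members were tested in every population.

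The members are read below by role, as 20 genes of the ATF4 branch (regulators, amino acid and one-carbon enzymes, transporters) and 9 ER chaperones and quality control factors, with no test between the roles. Among the ATF4 branch genes, 7 of 20 were higher and 1 lower in MG-LCs, 5 of 18 higher and 1 lower in KC-LCs, 12 of 18 higher and 1 lower in PM-LCs, and 14 of 20 higher in AM-LCs, where 25.2%, 14.4%, 16.8% and 25.9% of all genes were higher in vitro. For MG, KCs, PMs and AMs their median log2 fold changes were 1.05, 1.53, 2.12 and 2.26, while medians of all genes lay between -0.0095 and 0.037. Among the 9 ER factors, 0, 0, 1 and 8 were higher and 1, 1, 1 and 0 lower in MG-, KC-, PM- and AM-LCs. The ER medians were 0.151, -0.249, -0.201 and 1.47 in the same order. Psat1 and Asns were higher in all 4 populations (3.87% of genes tested in all populations were), and 9 members were higher in AMs and in no other population, 8 of them among the 30 tested in all populations (7.23% of such genes were). Several counts moved by more than 1.5 times when 1 library was left out. The 7 higher members of MG became 2 without MG 1 or MG 2 and 3 without MG 3. The 5 of KCs became 9 without KC 1, 2 without KC-LC 1 and 3 without KC-LC 2, and the 13 of PMs became 7 without PM 3. In AMs the higher members stayed between 22 and 24. Without MG-LC 1, PM-LC 2 or AM-LC 3, the cultured libraries highest in fibroblast markers within their groups, there were 8 higher members in MG, 14 in PMs and 24 in AMs. Leaving out MG-LC 1 also raised the lower members of MG from 2 to 6, where 54.7% of all genes were called.

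**Figure D1:**
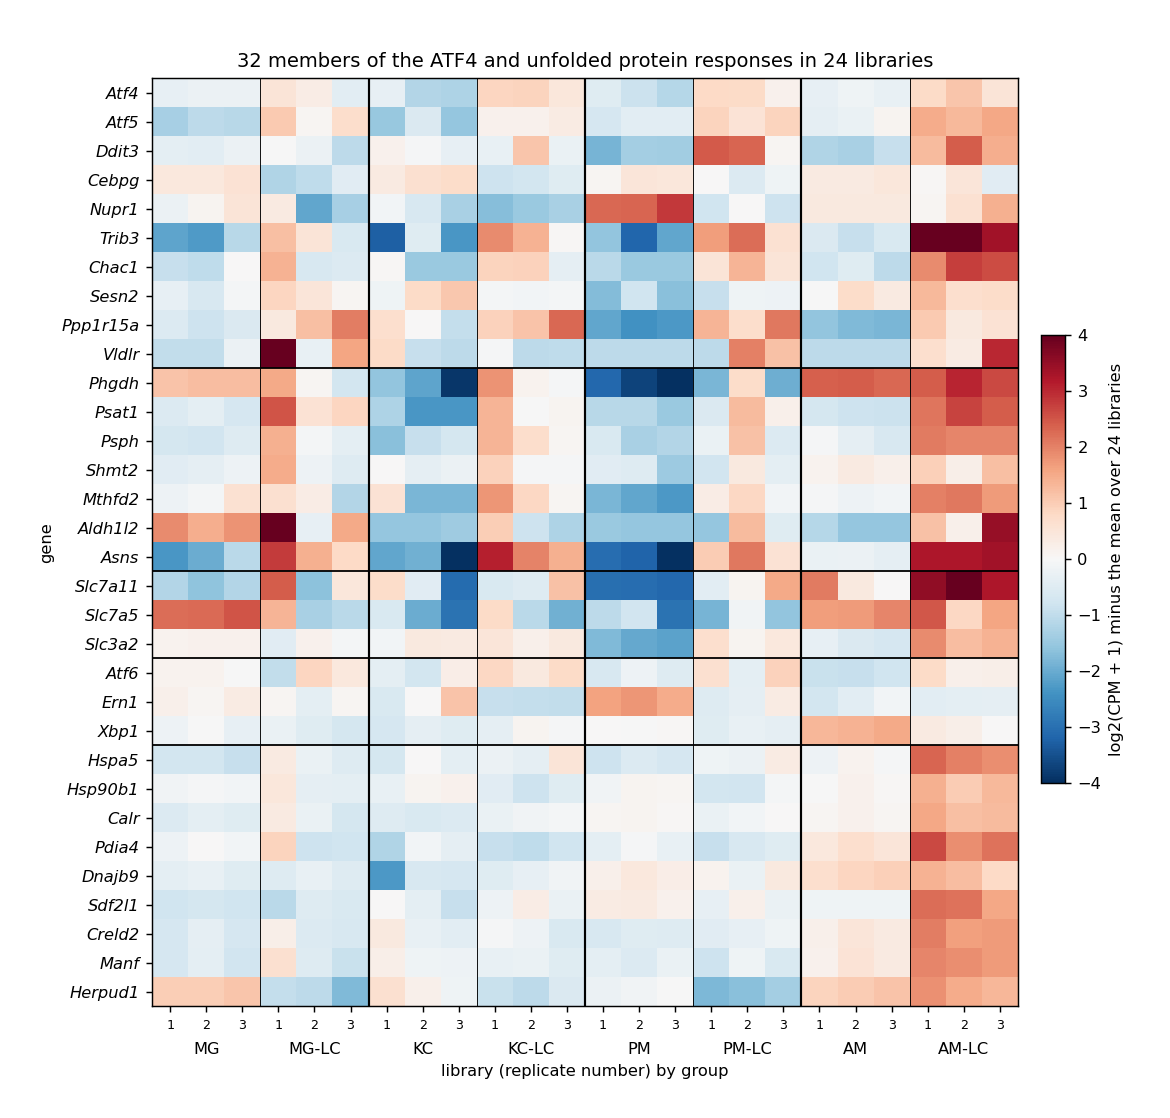
Expression of the 32 members (rows, grouped by role) in the 24 libraries (columns, 3 per group), as log2(CPM + 1) minus the mean of the gene over all libraries, with the colour ending at -4 and 4. The block of ER chaperones is highest in the 3 AM-LC libraries, and the enzymes are higher in most in vitro libraries than in the sorted libraries of the same organ.

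Atf4 itself, the factor that gives the branch its name, was measured at 123, 130 and 132 CPM in sorted MG, a range that MG-LCs, at 222, 190 and 116 CPM, overlapped. KCs held 124, 68.7 and 65.6 CPM against 280, 286 and 214 CPM in KC-LCs, and PMs held 111, 84.2 and 70 CPM against 268, 266 and 175 CPM in PM-LCs. In AMs the values were 123, 137 and 126 CPM against 263, 333 and 221 CPM in AM-LCs. The in vitro libraries lay above the sorted ones without overlap in KCs, PMs and AMs. The log2 fold changes were 1.56 ± 0.32 (SE, n = 3 against 3, adjusted p = 0.00874) in KCs, 1.42 ± 0.25 (adjusted p = 0.00569) in PMs and 1.08 ± 0.15 (adjusted p = 0.00126) in AMs, and 0.51 ± 0.27 (adjusted p = 0.165) in MG. Per kilobase of exon, mean Atf4 levels ran from 36.5 CPM per kb in KCs to 116 CPM per kb in AM-LCs.

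Atf5, a relative of Atf4 that is regulated in a similar way at translation, was low in sorted cells, at 0.264, 0.514 and 0.453 CPM in MG, 0.109, 1.12 and 0.0856 CPM in KCs, 1, 1.36 and 1.38 CPM in PMs and 1.46, 1.61 and 2.39 CPM in AMs. In culture it reached 5.51, 2.36 and 4.14 CPM in MG-LCs, 2.54, 2.52 and 2.98 CPM in KC-LCs, 4.81, 3.62 and 4.86 CPM in PM-LCs and 7.81, 6.83 and 8.18 CPM in AM-LCs. Every in vitro library lay above every sorted library of its organ. The log2 fold change was 3.33 ± 0.54 (SE, adjusted p = 0.00547) in MG, 1.82 ± 0.44 (adjusted p = 0.0204) in PMs and 2.07 ± 0.33 (adjusted p = 0.00232) in AMs, while KCs, at 2.59 ± 1.09 (adjusted p = 0.104), did not pass. The call in PMs was lost in 7 of 14 alternative settings, among them leaving out any 1 of the 3 PM libraries or PM-LC 1.

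Trib3, a pseudokinase that feeds back on ATF4 and AKT signalling, showed the same pattern at a higher level. Sorted libraries held 1.23, 1 and 3.51 CPM in MG, 0, 5.92 and 0.941 CPM in KCs, 2.27, 0.0818 and 1.27 CPM in PMs and 5.47, 4.14 and 5.3 CPM in AMs. In vitro libraries held 21.1, 12.7 and 5.34 CPM in MG-LCs, 35, 24.3 and 9.03 CPM in KC-LCs, 29.5, 44.7 and 13.8 CPM in PM-LCs and 160, 170 and 97.6 CPM in AM-LCs. The groups of each organ did not overlap, and the AM-LC libraries were above all others. The log2 fold change was 2.82 ± 0.73 (SE, adjusted p = 0.0223) in MG, 4.60 ± 0.98 (adjusted p = 0.0124) in PMs and 4.84 ± 0.24 (adjusted p = 4.7e-05) in AMs, and 3.30 ± 1.40 (adjusted p = 0.105) in KCs. The call was lost in MG without MG 1 or MG 2 and in PMs without PM 3.

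Ppp1r15a encodes GADD34, the subunit that directs dephosphorylation of eIF2alpha. It was measured at 71.7, 59.1 and 70.4 CPM in MG, 168, 106 and 54 CPM in KCs, 24, 18.8 and 20.5 CPM in PMs and 34.8, 30.4 and 28.9 CPM in AMs. After culture it stood at 137, 243 and 442 CPM in MG-LCs, 202, 231 and 526 CPM in KC-LCs, 270, 172 and 455 CPM in PM-LCs and 218, 139 and 159 CPM in AM-LCs. No organ showed overlap, and in MG-, KC- and PM-LCs the library numbered 3 was the highest of its group. The log2 fold change was 2.07 ± 0.43 (SE, adjusted p = 0.011) in MG, 3.83 ± 0.39 (adjusted p = 0.000529) in PMs and 2.46 ± 0.19 (adjusted p = 0.000142) in AMs, and 1.51 (adjusted p = 0.0539) in KCs. The call in MG was lost on leaving out any 1 of the 3 MG libraries. In the same 3 libraries, the summed level of 11 immediate early and heat shock genes was also the highest of the group, at 11000, 10900 and 12600 CPM against 2470 to 5060 CPM in the other MG-, KC- and PM-LC libraries, and the part of this in the Ppp1r15a values was not tested.

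Ddit3 and Chac1, which encode the stress factor CHOP and a glutathione-degrading enzyme, were called in PMs and AMs. Ddit3 was measured at 7.58, 11.2 and 10.8 CPM in PMs against 167, 155 and 32 CPM in PM-LCs, and at 12.4, 11.7 and 15.4 CPM in AMs against 74, 164 and 84.1 CPM in AM-LCs. Those groups did not overlap, with log2 fold changes of 3.58 ± 0.60 (SE, adjusted p = 0.00478) in PMs and 3.03 ± 0.32 (adjusted p = 0.000418) in AMs. In MG, Ddit3 lay at 22.7, 21.9 and 25.6 CPM against 29.8, 25.6 and 14.1 CPM in MG-LCs, and KCs held 33.7, 29.3 and 23.5 CPM against 24.1, 65.2 and 24.9 CPM in KC-LCs, and both pairs overlapped (adjusted p = 0.929 and 0.535). Chac1 had few reads ex vivo, with 0.334, 0 and 0 CPM in PMs and 0.628, 1.02 and 0.373 CPM in AMs. Its in vitro levels were 3, 6.29 and 3.06 CPM in PM-LCs and 9.57, 18.1 and 16.3 CPM in AM-LCs, above the sorted libraries in each case. The log2 fold change of Chac1 was 5.23 ± 1.46 (adjusted p = 0.0336) in PMs and 4.45 ± 0.49 (adjusted p = 0.000504) in AMs. Chac1 was not called in MG (0.485, 0.406 and 1.84 CPM, against 6.41, 0.821 and 0.943 CPM in MG-LCs) or in KCs (1.9, 0 and 0 CPM, against 4.2, 4.31 and 1.21 CPM in KC-LCs). The PM call of Chac1 was lost without PM 2, PM 3 or PM-LC 1.

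Cebpg and Nupr1 moved the other way. Cebpg, a partner of ATF4 in binding DNA, fell by 1.28 on the log2 scale in MG (adjusted p = 0.00733) and by 1.31 in KCs (adjusted p = 0.00483), with 139 to 155 CPM in MG against 45.1 to 76.9 CPM in MG-LCs and 134 to 175 CPM in KCs against 58.1 to 74.2 CPM in KC-LCs. Nupr1, a small stress-induced chromatin protein, was measured at 210, 214 and 301 CPM in PMs against 23.4, 42.1 and 23 CPM in PM-LCs and fell there by 3.04 on the log2 scale (SE 0.31, adjusted p = 0.000583). Nupr1 did not pass elsewhere, with 35.3, 44.9 and 59.4 CPM in MG against 53.6, 9.18 and 16.1 CPM in MG-LCs, 38.4, 26.4 and 16.3 CPM in KCs against 12.1, 14.1 and 16.4 CPM in KC-LCs, and 54.2, 54.6 and 55.3 CPM in AMs against 43.9, 64.5 and 113 CPM in AM-LCs. The sorted PMs were thus above every other library of the study in Nupr1. Sesn2, an inhibitor of mTORC1 signalling, was called higher in MG (log2 fold change 0.91 ± 0.26 SE, adjusted p = 0.0323), a call lost in 7 of 14 alternative settings, among them without MG 1, MG 2, MG 3 or MG-LC 2.

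Vldlr, a lipoprotein receptor gene known as an ATF4 target, had no read in any PM or AM library. It was measured at 2.35, 1.64 and 16 CPM in AM-LCs (adjusted p = 0.00737), with a mean at least 83-fold higher than a floor of 3 reads per AM library. In PM-LCs it was measured at 0, 7.46 and 3.75 CPM and was not tested. Their mean was at least 42.6-fold higher than a floor of 3 reads per PM library, although PM-LC 1 had no read. MG held 0.0441, 0.0541 and 0.787 CPM against 44.1, 0.697 and 5.23 CPM in MG-LCs, and the groups overlapped. The MG call (log2 fold change 5.86 ± 1.92 SE, adjusted p = 0.0462) was lost in 9 of 13 alternative settings, among them without MG-LC 1, MG-LC 3 or any 1 of the MG libraries. KCs held 2.55, 0.104 and 0 CPM and KC-LCs 1.03, 0 and 0.0252 CPM. The highest library of MG-LCs, PM-LCs and AM-LCs in Vldlr was in each case the one with the most fibroblast and mesothelium RNA.

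**Figure D2:**
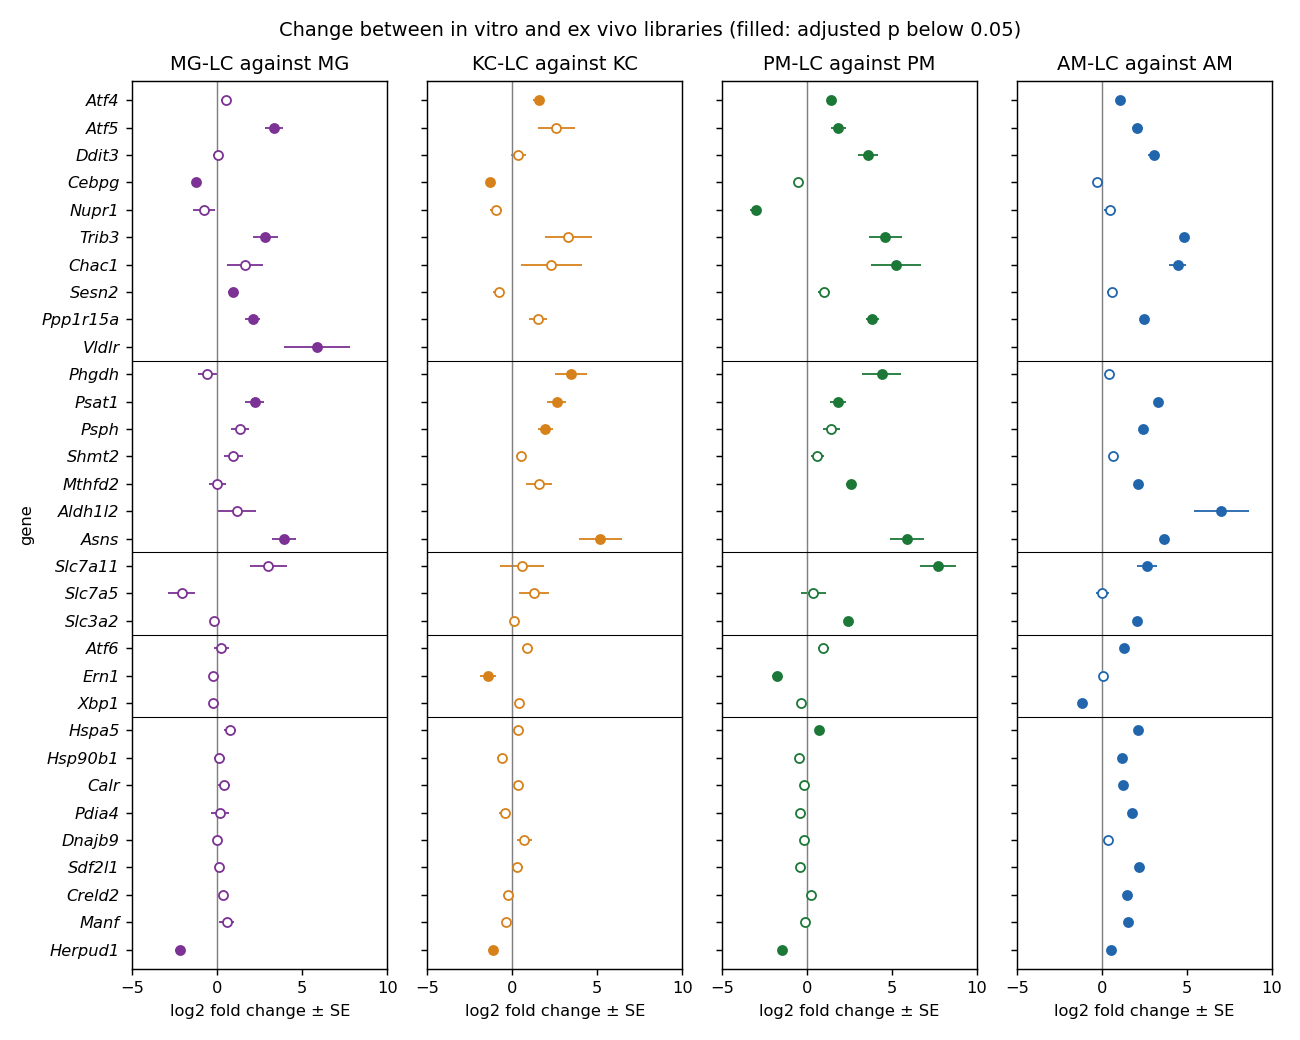
Log2 fold change of each member, in vitro minus ex vivo, with its SE (bars) in MG, KCs, PMs and AMs. Filled points passed an adjusted p of 0.05, and Vldlr is not drawn in AMs, where no sorted library had a read. Asns and Psat1 are filled and right of 0 in all 4 panels, and the ER chaperones are right of 0 with filled points, Dnajb9 excepted, in the AM panel.

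Asns, the enzyme that makes asparagine, had the largest fold changes that were called in all 4 populations. It was measured at 3, 4.14 and 8.59 CPM in MG, 3.83, 4.36 and 0 CPM in KCs, 1.44, 1.2 and 0.0271 CPM in PMs and 15.8, 16.2 and 14.9 CPM in AMs. The cultured cells held 140, 53.4 and 34.3 CPM in MG-LCs, 174, 79.3 and 53.5 CPM in KC-LCs, 39.8, 85.7 and 29.2 CPM in PM-LCs and 188, 187 and 206 CPM in AM-LCs. Each of the 12 in vitro libraries lay above all 12 sorted libraries. The log2 fold change was 3.91 ± 0.70 (SE, adjusted p = 0.00725) in MG, 5.19 ± 1.26 (adjusted p = 0.0167) in KCs, 5.87 ± 1.01 (adjusted p = 0.00538) in PMs and 3.64 ± 0.13 (adjusted p = 2.85e-05) in AMs. The highest MG-LC, PM-LC and AM-LC libraries (MG-LC 1, PM-LC 2 and AM-LC 3) were also the highest of their groups in fibroblast markers, and without them the log2 fold change of Asns was 3.11 (adjusted p = 0.00432) in MG, 5.26 (adjusted p = 0.00405) in PMs and 3.57 (adjusted p = 2.94e-05) in AMs. The KC call was lost without KC-LC 1 or KC-LC 2, where the highest adjusted p was 0.0542. Per kilobase of exon, the mean level went from 0.325 to 18.9 CPM per kb in PMs and from 5.72 to 70.8 CPM per kb in AMs. Asns lies on chromosome 6 at 7675169 to 7693254 (minus strand, GRCm38).

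Psat1, the transaminase of serine synthesis, followed with 19.6, 22 and 17.7 CPM in MG, 11.8, 4.93 and 4.91 CPM in KCs, 12.9, 12.7 and 9.57 CPM in PMs and 17.5, 16 and 15.4 CPM in AMs. After culture it was measured at 168, 43.2 and 53.2 CPM in MG-LCs, 75.8, 28.8 and 31.3 CPM in KC-LCs, 19.2, 70.7 and 33.4 CPM in PM-LCs and 132, 193 and 159 CPM in AM-LCs. The groups of each organ did not overlap. Its log2 fold change was 2.21 ± 0.56 (SE, adjusted p = 0.0205) in MG, 2.61 ± 0.54 (adjusted p = 0.00921) in KCs, 1.81 ± 0.47 (adjusted p = 0.0257) in PMs and 3.31 ± 0.18 (adjusted p = 4.85e-05) in AMs. The calls in MG and PMs were lost on leaving out any 1 sorted library of that population. Without MG-LC 1 and PM-LC 2, the highest of their groups in Psat1 as in fibroblast markers, the log2 fold change was 1.34 (adjusted p = 0.00173) in MG and 1.13 (adjusted p = 0.0262) in PMs.

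The other enzymes differed between organs. Phgdh, which starts serine synthesis, was nearly absent from sorted KCs (5.81, 3.71 and 0.371 CPM) and PMs (1.3, 0.573 and 0.136 CPM) and reached 70.2, 21.2 and 18.8 CPM in KC-LCs and 4.75, 32.6 and 4.3 CPM in PM-LCs. Sorted MG (44.2, 47.3 and 47.3 CPM) and AMs (105, 107 and 99.4 CPM) already held it, next to 56.8, 20.6 and 11.3 CPM in MG-LCs and 108, 169 and 127 CPM in AM-LCs. Phgdh was called higher in KCs (log2 fold change 3.44 ± 0.95 SE, adjusted p = 0.0266) and PMs (4.38 ± 1.13, adjusted p = 0.0256), but not in MG (adjusted p = 0.42) or AMs (adjusted p = 0.101). Its KC call was lost without KC 2, KC-LC 1 or KC-LC 2, and its PM call without any 1 of the PM libraries. Psph, which releases serine in the last step, was higher in KCs (1.93 ± 0.45, adjusted p = 0.014, lost without KC-LC 1) and AMs (2.42 ± 0.19, adjusted p = 0.000142). Mthfd2, a mitochondrial folate enzyme, was higher in PMs (2.57 ± 0.30, adjusted p = 0.00107) and AMs (2.11 ± 0.12, adjusted p = 6.09e-05). Sorted KC 1 stood apart in Mthfd2 at 62 CPM, next to 10.9 and 10.8 CPM in the other sorted KC libraries. KC 1 also held 458 CPM over 6 proliferation genes, against 125 and 174 CPM in KC 2 and KC 3. Over 8 macrophage genes it held 13100 CPM, against 21100 and 21700 CPM, and a link to Mthfd2 was not tested. Shmt2, which passes a carbon of serine to folate in mitochondria, was not called in any population, with log2 fold changes of 0.95, 0.52, 0.59 and 0.65 and adjusted p-values of 0.0726 to 0.294.

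Aldh1l2, another mitochondrial folate enzyme, was read at 0.329, 0 and 0 CPM in AMs and 5.49, 2.33 and 31.5 CPM in AM-LCs (log2 fold change 7.01 ± 1.63 SE, adjusted p = 0.0104). Sorted MG held 9.74, 6.98 and 9.02 CPM, overlapping MG-LCs at 45.8, 1.32 and 7.31 CPM. KCs held 0, 0 and 0.0856 CPM and PMs 0.0334, 0 and 0 CPM. KC-LCs held 4.78, 0.648 and 0.227 CPM and PM-LCs 0, 6.02 and 1.06 CPM. As with Vldlr, MG-LC 1, PM-LC 2 and AM-LC 3, which held the most fibroblast and mesothelium RNA of their groups, were the highest of their groups.

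Among the transporters, Slc7a11, the cystine importer, had the largest called change of any member outside Vldlr. PMs held 0.1, 0.0818 and 0 CPM against 5.69, 8.69 and 24.3 CPM in PM-LCs (log2 fold change 7.70 ± 1.03 SE, adjusted p = 0.00185), and AMs held 37, 10.6 and 8.11 CPM against 103, 159 and 83.7 CPM in AM-LCs (2.63 ± 0.59, adjusted p = 0.00916). Those groups did not overlap. The MG libraries read 2.93, 1.92 and 2.96 CPM against 47.2, 1.84 and 11.3 CPM in MG-LCs (adjusted p = 0.0616) and the KC libraries 13.8, 5.5 and 0.057 CPM against 4.9, 5.23 and 19.1 CPM in KC-LCs (adjusted p = 0.765). Slc3a2, the shared heavy chain of these transporters, stood at 123, 102 and 95.6 CPM in PMs against 679, 459 and 569 CPM in PM-LCs (2.41 ± 0.21, adjusted p = 0.000289). In AMs, Slc3a2 went from 337, 283 and 265 CPM to 1560, 1000 and 1100 CPM in AM-LCs (2.05 ± 0.20, adjusted p = 0.000293). It stayed within the range of the sorted cells in part of the other libraries, with 466, 472 and 482 CPM in MG, 390, 555 and 538 CPM in KCs, 307, 481 and 398 CPM in MG-LCs and 593, 484 and 559 CPM in KC-LCs. Slc7a5, the importer of large neutral amino acids, was not called in any population (adjusted p = 0.069 in MG, where 129 to 157 CPM ex vivo stood above 10.3 to 71.1 CPM in vitro).

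**Figure D3:**
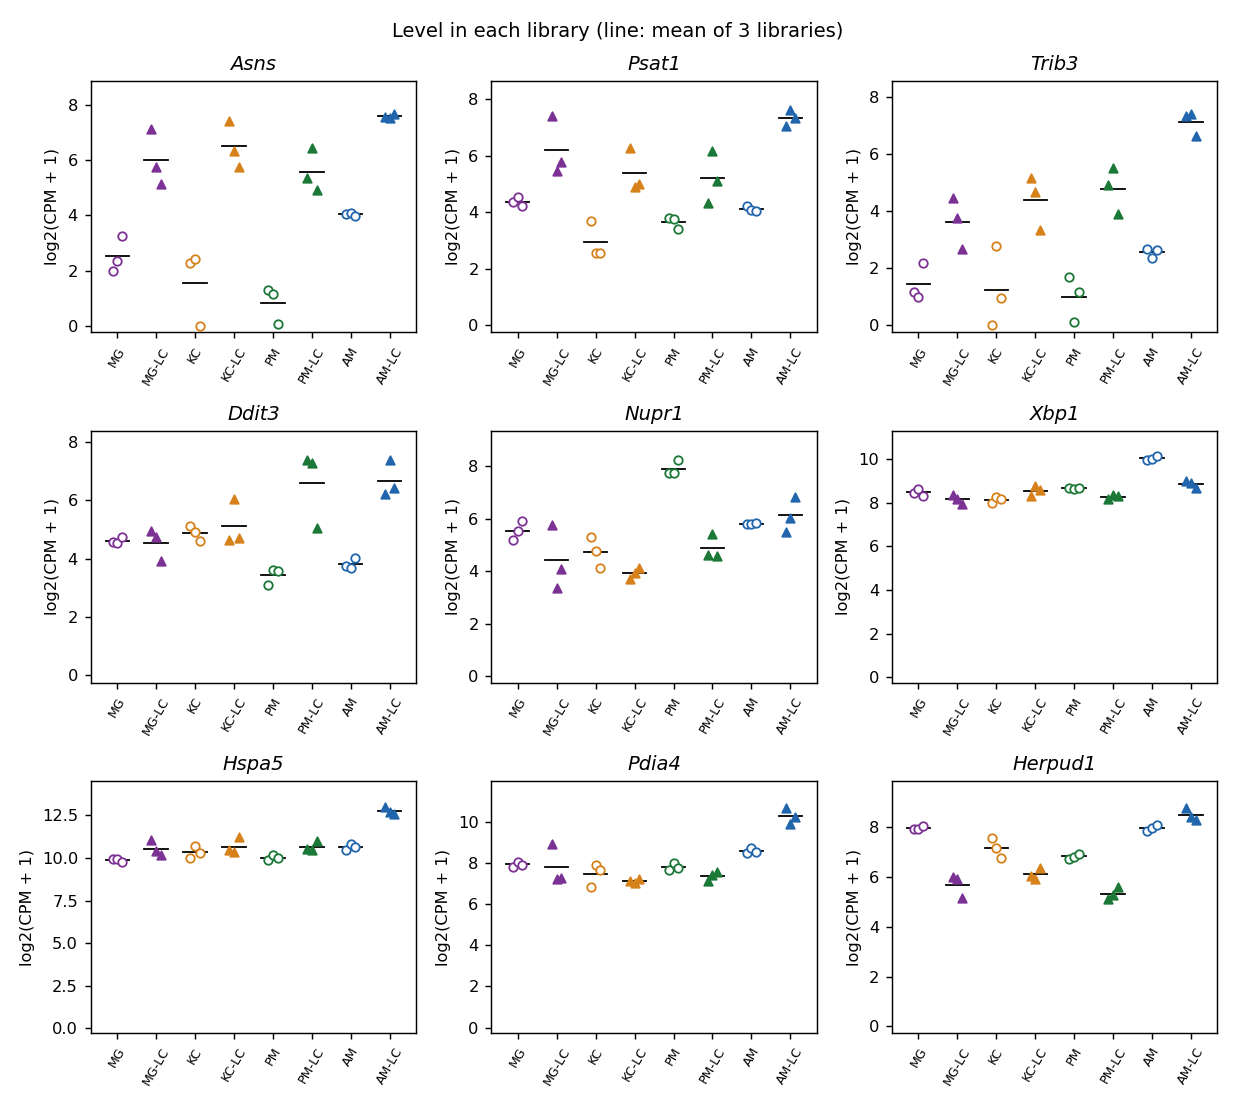
Expression per library, as log2(CPM + 1), of 9 members in the 8 groups, with a line at the mean of each group. Asns, Psat1 and Trib3 are higher in the in vitro group of each organ, Hspa5, Pdia4 and Herpud1 are highest in AM-LCs, Nupr1 is highest in sorted PMs and Xbp1 in sorted AMs.

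Among the sensors, Atf6 was higher in AMs alone, as were most chaperones, while Ern1 and Xbp1 were called lower or not at all. Atf6, whose cleaved product drives chaperone genes, was measured at 89.7, 89.7 and 79.3 CPM in MG, 60.9, 47.9 and 96.6 CPM in KCs, 51.2, 69.5 and 56.1 CPM in PMs and 43.2, 42.2 and 45.9 CPM in AMs. In vitro it was measured at 40.7, 147 and 109 CPM in MG-LCs, 145, 107 and 138 CPM in KC-LCs, 126, 61.3 and 155 CPM in PM-LCs and 137, 93.4 and 95.2 CPM in AM-LCs. The test passed in AMs alone (log2 fold change 1.32 ± 0.16 SE, adjusted p = 0.000772), although KC and KC-LC libraries did not overlap either (0.89, adjusted p = 0.0587). Ern1 was measured at 81.1, 88.8 and 73.4 CPM in PMs and 17.6, 20 and 32.5 CPM in PM-LCs and fell by 1.79 on the log2 scale (SE 0.27, adjusted p = 0.00324). In KCs it was read at 16.5, 26.2 and 58 CPM against 13.1, 12.7 and 12.5 CPM in KC-LCs and fell by 1.43 (adjusted p = 0.0444), a call lost in 8 of 14 alternative settings, among them without KC 2, KC 3 or any 1 of the KC-LC libraries. MG (29.8, 26.9 and 32.6 CPM) and MG-LCs (27.4, 19.3 and 27.3 CPM) overlapped, as did AMs (14.9, 19.1 and 23.6 CPM) and AM-LCs (19, 19.4 and 19.8 CPM). Xbp1 fell by 1.18 (SE 0.12, adjusted p = 0.00032) in AMs, from 1010, 1050 and 1140 CPM to 516, 475 and 410 CPM in AM-LCs. In the other organs Xbp1 lay at 253 to 413 CPM ex vivo and 248 to 431 CPM in vitro and was not called.

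Of the ER chaperones and folding factors, 8 were called higher in AM-LCs than in AMs. Hspa5, which encodes the chaperone BiP that also holds the stress sensors inactive, was measured at 1420, 1820 and 1590 CPM in AMs and 8270, 6720 and 6030 CPM in AM-LCs, a log2 fold change of 2.13 ± 0.17 (SE, adjusted p = 0.000152). In the other organs the sorted libraries held 874 to 1660 CPM and the in vitro libraries 1160 to 2380 CPM. The mean of AM-LCs, 7010 ± 1140 CPM (SD, n = 3), corresponded to 1660 CPM per kb of exon, against 365 to 399 CPM per kb in MG-, KC- and PM-LCs. PM-LCs, at 1460, 1400 and 2070 CPM, lay above PMs, at 935, 1130 and 1030 CPM (0.67 ± 0.21, adjusted p = 0.0481), but that call was lost in 9 of 14 alternative settings, among them without any 1 of the PM libraries, PM-LC 1 or PM-LC 3. Sdf2l1, a partner of BiP, stood at 197, 194 and 196 CPM in AMs and 1030, 998 and 645 CPM in AM-LCs (2.19 ± 0.17, adjusted p = 0.000152). Outside AM-LCs it was measured at 127, 135 and 127 CPM in MG, 224, 168 and 116 CPM in KCs and 279, 285 and 248 CPM in PMs. The cultured MG-LCs, KC-LCs and PM-LCs, at 104, 152 and 144 CPM, 189, 272 and 183 CPM, and 176, 254 and 184 CPM, overlapped their sorted cells. Pdia4, a disulfide isomerase, was read at 355, 423 and 369 CPM in AMs and 1650, 949 and 1190 CPM in AM-LCs (1.73 ± 0.21, adjusted p = 0.000781). In the remaining libraries Pdia4 lay between 113 and 486 CPM, the highest being MG-LC 1.

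The rest of the ER genes were alike in AMs. Manf, a secreted ER factor (log2 fold change 1.5 ± 0.13 SE, adjusted p = 0.000217), Creld2, an ER-resident protein (1.47 ± 0.14, adjusted p = 0.00032), Calr, the lectin chaperone calreticulin (1.24 ± 0.13, adjusted p = 0.000479), and Hsp90b1, the chaperone GRP94 (1.19 ± 0.15, adjusted p = 0.000824), were called in AMs and in no other population. Dnajb9, a BiP co-chaperone, was the exception (0.34, adjusted p = 0.105), with 75.7, 86.2 and 92.8 CPM in AMs and 126, 113 and 83.3 CPM in AM-LCs. None of these AM calls was lost on leaving out any 1 of the 6 AM and AM-LC libraries.

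Herpud1, an ER membrane protein of the degradation machinery, was the 1 member called in both directions. It was measured at 237, 240 and 259 CPM in MG, 187, 140 and 107 CPM in KCs, 103, 110 and 120 CPM in PMs and 225, 243 and 264 CPM in AMs. In vitro it stood at 62.3, 58.2 and 34.8 CPM in MG-LCs, 64.9, 58.2 and 80.6 CPM in KC-LCs, 33.8, 37.3 and 46.8 CPM in PM-LCs and 427, 336 and 306 CPM in AM-LCs. No pair overlapped, with the in vitro libraries below the sorted ones in 3 organs and above them in lung. Herpud1 fell by 2.19 (SE 0.27, adjusted p = 0.00239) in MG, by 1.13 (SE 0.27, adjusted p = 0.0167) in KCs and by 1.5 (SE 0.19, adjusted p = 0.00156) in PMs on the log2 scale, and was higher by 0.55 ± 0.14 (adjusted p = 0.0138) in AM-LCs. The KC call was lost without KC-LC 1 or KC-LC 2 and the AM call without AM 1 or AM 2. The promoter stretch of Herpud1 printed above held both a CARE and an ERSE-II.

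The contrast between both programmes was described by the mean log2 CPM over the 20 ATF4 branch genes and over the 9 ER genes in each library, without a test, because the members were chosen with earlier results of these data known. Mean ATF4 branch levels of sorted MG, KCs, PMs and AMs were 3.94, 2.72, 2.03 and 3.87, and 4.80, 4.54, 4.62 and 6.26 in the cultured cells of the same organs. Mean ER levels of the sorted cells were 7.65, 7.62, 7.81 and 8.30, and 7.54, 7.56 and 7.53 in MG-, KC- and PM-LCs but 9.65 ± 0.216 (SD, n = 3) in AM-LCs. In vitro minus ex vivo, the ATF4 branch mean differed by 0.857, 1.82, 2.59 and 2.38 in MG, KCs, PMs and AMs, and the ER mean by -0.101, -0.0527, -0.284 and 1.35. MG-LC 1, PM-LC 2 and AM-LC 3, with fibroblast and mesothelium sums of 30900, 2210 and 1670 CPM, were each the highest of their group in the ATF4 branch mean (5.84 against 4.17 and 4.39, 5.33 against 4.01 and 4.50, and 6.4 against 6.21 and 6.16). Without them the ATF4 branch mean differed by 0.34 in MG, 2.22 in PMs and 2.31 in AMs, and the ER mean by -0.332, -0.278 and 1.44. With all libraries, the ATF4 branch change exceeded the ER change by 0.958, 1.87, 2.87 and 1.03, where the pooled SD between libraries was 0.475, 0.673, 0.56 and 0.27. With the median over members in place of the mean, the AM value was 0.295. In sorted cells the ATF4 branch mean of PMs was the lowest, and in culture the means of MG-, KC- and PM-LCs differed by less than the SD of the 3 MG-LC libraries, which was 0.904.

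**Figure D4:**
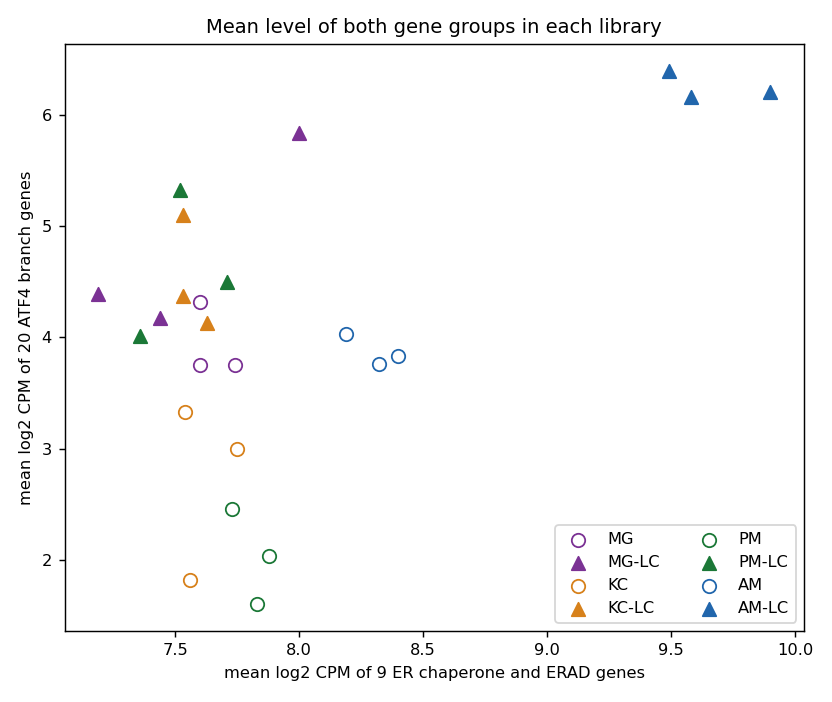
Mean log2 CPM of the 20 ATF4 branch genes (vertical axis) against that of the 9 ER chaperones and quality control factors (horizontal axis). Each library is 1 point, with open circles for sorted and filled triangles for in vitro libraries. On average, MG-, KC- and PM-LCs lie above their sorted cells at a similar horizontal position. The 3 AM-LC libraries lie above and to the right of the AMs.

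The question of whether a change in 1 population differed from the mean change in the other 3 was tested in 1 model of all 24 libraries, so that the 4 tests share their libraries. In AMs the difference was called for 13 of 32 members, 12 above and 1 below the others, where 17.1% of all genes were called, 7.68% above and 9.45% below. ER genes made up 8 of the 12. Sdf2l1 changed by 2.19 in AMs against a mean of -0.00714 elsewhere (difference 2.20, adjusted p = 1.88e-05). For Herpud1 the changes were 0.546 against -1.60 (difference 2.16, adjusted p = 1.05e-05), and for Hspa5 2.12 against 0.578 (difference 1.55, adjusted p = 0.00207). None of these 8 calls was lost in any of 28 alternative settings. Xbp1 went further down in AMs than elsewhere (difference -1.10, adjusted p = 0.000384). Asns, Psat1, Trib3, Atf5 and Chac1 were not called in any of the 4 tests, which does not show that they changed alike. In PMs 9 members were called, 5 above and 4 below, where 13.2% of all genes were, 6.28% above and 6.96% below, with larger changes of Slc3a2 (difference 1.77, adjusted p = 8.2e-05) and Ddit3 (2.45, adjusted p = 0.00566) and a deeper drop of Nupr1 (-2.60, adjusted p = 0.00377). MG had 6 called members, each below the mean of the other populations (19.8% of all genes, 12.3% above and 7.55% below). KCs had 7, of which 1 was above and 6 were below (15.4% of all genes, 5.06% above and 10.4% below). The MG count became 10 without KC 1, the KC count 4 without KC-LC 2, MG 1 or PM-LC 3, and the PM count 4 without PM 2 and 5 without PM 3.

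Differences between organs were present before culture. Each sorted population was compared with the mean of the other 3 over 12 libraries and 31 members tested. In MG 9 were higher and 7 lower (51.4% of all genes were called, 26.2% higher and 25.2% lower). In KCs 4 were higher and 8 lower (36.5%, with 24.1% and 12.4%), in PMs 4 and 10 (35.9%, with 20.8% and 15.1%) and in AMs 14 and 4 (46.6%, with 24.7% and 21.9%). The shares called in MG and KCs lay near those of all genes. The 16 called members of MG became 9 without MG 1 and 8 with all 24 libraries in 1 model. Among the 14 higher in sorted AMs were Xbp1 at 1.63 on the log2 scale (adjusted p = 1.41e-07), Phgdh at 4.49 (adjusted p = 1.97e-05), Slc7a11 at 4.20 (adjusted p = 0.00198), Asns at 2.75 (adjusted p = 0.0223) and 7 of the 9 ER genes. Sorted PMs were higher in Nupr1 (2.58, adjusted p = 2.22e-06) and Ern1 (1.62, adjusted p = 0.000614) and lower in Slc3a2 (-1.92, adjusted p = 1.76e-06) and Phgdh (-5.24, adjusted p = 0.000287). In MG, Aldh1l2 (7.87, adjusted p = 5.23e-05) and Slc7a5 (2.73, adjusted p = 0.000429) were higher, and in KCs Ppp1r15a (1.65, adjusted p = 0.000199).

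Cultured cells were compared in the same way, and fewer genes were called than among sorted cells over the whole table, and fewer members except in AM-LCs. Against the mean of the other 3 cultured populations, 19 of 32 members were called in AM-LCs, all of them higher, where 13.1% of all genes were called, 8.38% higher and 4.71% lower. All 9 ER genes were among them, led by Pdia4 (log2 difference 2.80, adjusted p = 0.000649), Herpud1 (2.79, adjusted p = 3.56e-05) and Sdf2l1 (2.32, adjusted p = 9.96e-05), and so were Trib3 (2.79, adjusted p = 0.00326), Slc7a11 (3.06, adjusted p = 0.0198), Slc3a2 (1.31, adjusted p = 0.00151) and Phgdh (2.44, adjusted p = 0.0316). Asns (adjusted p = 0.0691), Psat1 (0.0548), Ddit3 (0.124) and Atf4 (0.414) did not pass. The count was 12 without AM-LC 1 or AM-LC 2. MG-LCs had 1 called member (Sdf2l1, -1.34, with 0.56% of all genes called, 0.338% higher and 0.223% lower). KC-LCs had 0 (0.108% of all genes, 0.0135% higher and 0.0945% lower) and PM-LCs 1 (Herpud1, -1.48, with 0.527% of all genes called, 0.405% higher and 0.122% lower). At an unadjusted p below 0.05 there were 12, 9 and 11, and limma-voom called 1, 0 and 1. With all 24 libraries in 1 model the counts were 6, 2 and 5 for MG-, KC- and PM-LCs and 22 for AM-LCs. Shares of all genes at the unadjusted p and in these settings were not counted, so these counts cannot be set against genes at large. The Sdf2l1 call was lost on leaving out any 1 of the 12 libraries except MG-LC 2, without which MG-LCs had 2 called members, and without MG-LC 1 KC-LCs had 1. The Herpud1 call was lost without AM-LC 1, KC-LC 3 or any 1 of the PM-LC libraries.

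MG-LC 1, PM-LC 2 and AM-LC 3, the libraries with the most fibroblast and mesothelium RNA in their groups, were left out together in a setting chosen after the values were seen. Libraries that were kept still held such RNA, with sums of 1010 CPM in MG-LC 3, 365 CPM in PM-LC 3 and 181 CPM in AM-LC 2. In this setting AM-LCs differed from the other cultured cells in 23 of 32 members, the 9 ER genes included, where 15.7% of all genes were called. For 8 ER genes the change in AMs was again called as different from the mean change elsewhere, where 16.9% of all genes were called. Among sorted libraries the sum of the 8 fibroblast and mesothelium genes was at most 23.8 CPM. Among AM-LCs, Vldlr and Aldh1l2 were highest in AM-LC 3, and Hspa5 was highest in AM-LC 1, where the fibroblast sum was 17 CPM. Of the 20 ATF4 branch genes, 17 were highest in MG-LC 1 among MG-LCs, 13 in PM-LC 2 among PM-LCs and 6 in AM-LC 3 among AM-LCs, and Asns, Nupr1, Shmt2, Vldlr and Aldh1l2 were so in all 3 groups. Of the 9 ER genes, 7, 2 and 0 were highest in these libraries. The share of all genes that were highest in these libraries was not counted, so these counts do not set the members apart from genes at large. The mean of the 7 serine, one-carbon and asparagine enzymes was also highest there (6.36 against 4.44 and 4.30, 5.39 against 3.13 and 3.74, and 6.71 against 6.28 and 6.18 on the log2 scale). Without these libraries its change in culture was 0.183 in MG, 2.19 in PMs and 2.49 in AMs, against 0.85, 2.84 and 2.64 with them. The part of these cells in the levels of ATF4 branch genes was not tested further.

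**Figure D5:**
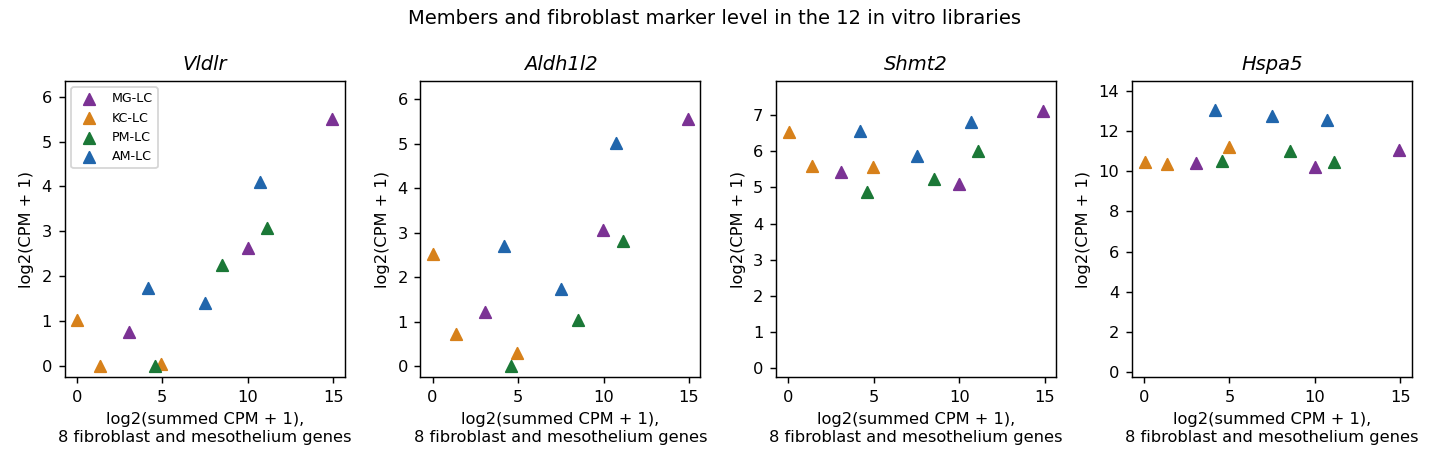
Summed CPM of 8 fibroblast and mesothelium genes (horizontal axis, log2 of the sum + 1) against expression of Vldlr, Aldh1l2, Shmt2 and Hspa5 (vertical axes, log2(CPM + 1)) in the 12 in vitro libraries. Vldlr and Aldh1l2 are highest in MG-LC 1, PM-LC 2 and AM-LC 3 of their groups, while Hspa5 is high in all 3 AM-LC libraries, whose fibroblast sums run from 17 to 1670 CPM.

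Other genes of the same pathways were taken from lists of known function. Over all genes, 25.2%, 14.4%, 16.8% and 25.9% were higher and 21.2%, 19.4%, 12.1% and 22.9% lower in vitro in MG, KCs, PMs and AMs, and the counts of each list stand beside these shares. Among other genes of the amino acid response, 7 were higher and 1 lower of 21 tested in MG, 6 and 2 of 18 in KCs, 5 and 0 of 18 in PMs and 13 and 2 of 21 in AMs, with median log2 fold changes of 1.04, 0.802, 0.851 and 1.39. Atf3, a stress-induced relative of ATF4, was higher in all 4 (log2 fold changes of 4.09, 3.99, 4.35 and 2.72). Gdf15, a secreted stress factor, was measured at 0.22 to 0.549 CPM in sorted MG against 25.2 to 187 CPM in MG-LCs, at 0.134 to 0.655 CPM in PMs and 80 to 110 CPM in PM-LCs, and at 40.3 to 53.7 CPM in AMs and 57.7 to 65.9 CPM in AM-LCs. It was called higher in MG, KCs and PMs, and its change in AMs was below the mean of the others (difference -6.53, adjusted p = 1.02e-05). Of 20 aminoacyl-tRNA synthetases, which charge tRNAs with amino acids, 8, 6, 8 and 10 were higher and 0, 0, 1 and 0 lower in MG, KCs, PMs and AMs, with small medians of 0.135, 0.329, 0.159 and 0.492. Sars, Dars and Rars were higher in all 4, and Cars, Mars and Farsb in 3, while Nars was among the largest changes in AMs (1.26). Pck2, Gpt2 and Mthfd1l were each higher in 3 populations. The largest fitted changes of the amino acid response were those of genes with few reads ex vivo, namely Slc1a4 (0 to 0.0249 CPM in AMs against 4.89 to 15.9 CPM in AM-LCs), Slc6a9 (0 to 0.0256 CPM against 3.66 to 8.97 CPM in AM-LCs), Stc2 (no read in PMs against 0.323 to 5.47 CPM in PM-LCs) and Cth (0 to 0.0239 CPM in MG against 0.772 to 8.77 CPM in MG-LCs).

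Among 25 other ER folding and degradation genes, 17 were higher and 2 lower in AMs (median 0.876), against 2 and 2 in MG (0.119), 3 and 1 in KCs (0.152) and 4 and 3 in PMs (0.132). Ero1l, an oxidase that restores disulfide exchange, was higher in all 4 populations (3.29, 1.35, 1.02 and 1.94). Sec61b had the next largest change in MG (2.04), Syvn1 fell by 1.58 in KCs, and Derl3 (2.73) and Wfs1 (2.06) led in AMs. Derl2 was higher in KCs, PMs and AMs. Derl1, part of the export channel for misfolded proteins, was measured at 570 to 639 CPM in PMs and 201 to 205 CPM in PM-LCs and fell by 1.60 there (adjusted p = 0.000389), while AMs held 210 to 240 CPM and AM-LCs 383 to 442 CPM. Of 14 eIF2alpha kinases, phosphatase genes and eIF2 subunits, 5, 3, 0 and 3 were higher and 3, 1, 0 and 3 lower in MG, KCs, PMs and AMs, with Eif2s1 and Eif2s2 higher in 3 populations, Eif2s3x among the largest changes in MG (1.26) and Eif2ak2 down by -1.86 in KCs. Mitochondrial chaperones and proteases, a further list of 9, had 5, 2, 2 and 5 higher and 0, 0, 0 and 1 lower, with Hspa9 higher in all 4, Hspe1 in 3 and Clpp in KCs among them (0.82). Of 7 NRF2 targets, genes of the antioxidant response that also includes Slc7a11, 6, 2, 6 and 4 were higher and 1, 0, 0 and 0 lower. Srxn1 and Gclm were higher in all 4, and Nqo1 and Hmox1 in MG, PMs and AMs, with Nqo1 at 0 to 0.216 CPM in MG against 343, 6 and 16.3 CPM in MG-LCs, highest in MG-LC 1. Immediate early and heat shock genes, a list of 11, had 3, 6, 5 and 0 higher and 2, 2, 1 and 5 lower. Fosb and Dusp1 were higher in MG, KCs and PMs, and Hspa1b was lower in these 3 (-3.41, -8.06 and -2.29), as was Hspa1a in KCs (-6.53). Fos had a log2 fold change of 6.30 in PMs and -1.96 in AMs, and Ier2 one of -1.33 in AMs.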

How the data were processed

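RNA was sequenced as single reads from 12 sorted and 12 cultured libraries, made with a kit that does not mark the strand, so that reads of a gene and of a partner on the opposite strand cannot be told apart. The authors deposited raw counts of reads per gene from STAR, with 1 column per library and without normalization. Their processing notes name Trimmomatic 0.36, STAR 2.5.2b and hg19, whereas the methods of the study name mm10 and other versions, and the identifiers are mouse Ensembl genes. Symbols, coordinates and exon lengths came from the GENCODE annotation of GRCm38, which named 45143 of 45706 identifiers, and promoter sequence from RefSeq.

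The members and gene lists were chosen with earlier results of these data known. Analyses used R 4.3.3 with edgeR 4.0.16, limma 3.58.1 and DESeq2 1.42.0. Groups were compared with the two-sided quasi-likelihood test of edgeR, following TMM and a filter on low counts (filterByExpr, minimum count 10), with Benjamini-Hochberg adjustment over all genes tested. Each population was fitted on its 6 libraries, sorted and cultured populations on 12 and the difference of changes on 24. Log2 CPM used a prior count of 2. Values after ± are SEs for fold changes and SDs for levels. Each SE was derived from the test, as the absolute log2 fold change divided by the square root of its F statistic.

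Values per library are given for members called in 1 direction in at least 3 populations or in both directions, and for the 2 members of each class with the largest called fold change. Those of Ddit3, Nupr1, Xbp1, Phgdh, Hspa5, Pdia4, Slc3a2 and Dnajb9 were added after their values were seen. Genes of the other lists are named when called in 1 direction in at least 3 populations or when among the 2 with the largest called fold change in a population. Settings tried besides were RLE size factors, DESeq2, limma-voom, no filter, a filter of 1 CPM, a log2 fold change above 1.5, 1 model of all 24 libraries, replicate number as a block, other summaries of the classes and leaving out each library. The fit was tested on simulated data. Other assays of the study were not analysed here.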

Additional observations from a re-analysis of the deposited data

Results flagged for a closer look

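The change in culture of 1 population differed from the mean change of the other 3 for the following members, each by a test of the difference itself in the model of all 24 libraries (edgeR's quasi-likelihood test, adjusted over all genes). The 4 tests share their libraries, and values are differences of log2 fold changes. For MG, KCs and PMs the mean of the others includes AMs, so their calls on ER genes also carry the rise in AMs.

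In MG the change lay below that of the others for Atf4 by -0.91 (adjusted p = 0.0446), which was lost in 20 of 28 alternative settings. Further members below the others were Ddit3 (-2.35, adjusted p = 0.005), Phgdh (-3.39, adjusted p = 0.0209), Mthfd2 (-2.15, adjusted p = 0.0259), Slc3a2 (-1.80, adjusted p = 3.52e-05) and Herpud1 (-1.56, adjusted p = 0.000206).

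In KCs the change of Xbp1 lay above the others (1.04, adjusted p = 0.000943). Below them were Ddit3 (-1.80, adjusted p = 0.0331), Sesn2 (-1.55, adjusted p = 0.0106), Slc3a2 (-1.26, adjusted p = 0.00195), Hsp90b1 (-0.84, adjusted p = 0.0407, lost in 18 of 28 settings) and Creld2 (-0.88, adjusted p = 0.0365, lost in 10 of 28). Hsp90b1 itself changed by -0.591 in KCs and a similar -0.496 in PMs, by 0.0691 in MG and by 1.18 in AMs. Creld2 changed by -0.209 in KCs, 0.301 in MG, 0.233 in PMs and 1.45 in AMs. The fitted value of Vldlr in KCs (-10.26, adjusted p = 0.038) rests on PM and AM libraries without a read and is no measure of size.

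In PMs larger changes were called for Ddit3 (2.45, adjusted p = 0.00566), Ppp1r15a (1.81, adjusted p = 0.0229), Phgdh (3.33, adjusted p = 0.0417, lost in 18 of 28 settings), Slc7a11 (5.64, adjusted p = 0.0278) and Slc3a2 (1.77, adjusted p = 8.2e-05). Lower ones were called for Nupr1 (-2.60, adjusted p = 0.00377), Ern1 (-1.24, adjusted p = 0.0315), Calr (-0.86, adjusted p = 0.0199) and Sdf2l1 (-1.26, adjusted p = 0.00396). Calr itself changed by -0.202 in PMs, 0.333 in MG, 0.401 in KCs and 1.23 in AMs. Sdf2l1 changed by -0.404 in PMs, 0.0416 in MG, 0.341 in KCs and 2.19 in AMs.

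In AMs the change of Xbp1 was lower (-1.10, adjusted p = 0.000384). Among regulators, transporter and sensor, the change lay above that of the others for Ddit3 (1.71, adjusted p = 0.0392, lost in 13 of 28 settings), Nupr1 (2.03, adjusted p = 0.016), Slc3a2 (1.28, adjusted p = 0.00121) and Ern1 (1.17, adjusted p = 0.0359, lost in 13 of 28). Nupr1 changed by 0.427 in AMs against a mean of -1.58 elsewhere, and Ern1 by 0.0159 against -1.13. The ER genes called were Hspa5 (1.55, adjusted p = 0.00207), Hsp90b1 (1.52, adjusted p = 0.000611), Calr (1.05, adjusted p = 0.00412), Pdia4 (1.98, adjusted p = 0.00248), Sdf2l1 (2.20, adjusted p = 1.88e-05), Creld2 (1.35, adjusted p = 0.00196), Manf (1.47, adjusted p = 0.0039) and Herpud1 (2.16, adjusted p = 1.05e-05).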

How the results depend on the processing

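No result reversed its direction under any setting tried. Without a filter on low counts the shares of all genes called for MG, KCs, PMs and AMs were 22.6%, 18%, 15.8% and 26.5%, and above a log2 fold change of 1.5 it was 29.8%, 22.3%, 17.7% and 21.5%. That fold threshold also left 1 lower member in MG and 0 in KCs and AMs. Limma-voom called 10 members higher in KCs, and DESeq2 called 5 lower in KCs and 5 in PMs. With all 24 libraries in 1 model, 11 were higher in KCs, 28.8% of genes were called in AMs, sorted MG had 8 called members, and cultured MG, KCs and PMs had 6, 2 and 5. The class difference was 3.07 in KCs with the enzymes alone, and 2.1 in PMs and 0.295 in AMs with the median. In the setting added after seeing the data, which left out MG-LC 1, PM-LC 2 and AM-LC 3, cultured MG had 0 called members, where 0.357% of all genes were called. The cause of these shifts was not tested.

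Replicate numbers were not taken to pair the libraries. Between sorted and cultured libraries of a population, 0 of 12 same-numbered pairs correlated above 0.1 and in 3 of 12 the own number correlated best. Between populations, 0 of 18 sorted and 5 of 18 cultured pairs correlated above 0.1, from -0.385 to 0.288 in culture with the own number best in 10 of 18, among them the libraries numbered 3 of MG-LCs, KC-LCs and PM-LCs (0.208, 0.288 and 0.23). With the replicate number as a block, 4 members were higher in MG and 8 in KCs, cultured MG and PMs had 0 called members each, and 14 of 173 calls of single genes were lost. Single calls lost numbered 11 of 173 under limma-voom, 2 of 173 under RLE size factors, 2 of 172 under a filter of 1 CPM, 4 of 57 without a filter, 16 of 57 under the fold threshold, 27 of 138 in 1 model of all 24 libraries and 0 of 57 under DESeq2.

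Leaving out 1 library at a time, members higher in vitro ranged from 2 to 8 in MG, 2 to 9 in KCs, 7 to 14 in PMs and 22 to 24 in AMs. Members lower ranged from 2 to 6 (6 without MG-LC 1), 1 to 6 (6 without KC 1, 1 without KC-LC 1 or KC-LC 2), 3 to 6 (6 without PM-LC 3) and 1 to 2 (2 without AM-LC 2). The share of all genes called ranged from 18.9% to 54.7% in MG, lowest without MG 1, 17.4% to 39.1% in KCs, lowest without KC-LC 2, 14.5% to 38.1% in PMs, lowest without PM 3, and 34.7% to 46.6% in AMs. Sorted populations had 9 to 20, 11 to 17, 12 to 17 and 12 to 22 called members in MG, KCs, PMs and AMs, cultured ones 0 to 2, 0 to 1, 0 to 1 and 12 to 23, and tests of the difference of changes 4 to 10, 4 to 9, 4 to 9 and 11 to 14. The class difference ranged from 0.668 to 1.22, 1.45 to 2.22, 2.51 to 3.12 and 0.877 to 1.18.

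RLE size factors moved the median of all genes by more than 0.1 in 1 comparison, the difference of changes in KCs (-0.157 to -0.282, a shift of -0.124), and no called member changed direction. Depth limits members with few reads, such as Vldlr in PMs and AMs and Aldh1l2 in KCs, PMs and AMs, where most sorted libraries had no read. With 3 libraries per group, a gene that was not called is not shown to be unchanged.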
